A study of Homo sapiens with 6 samples.

Results

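The cadherin and protocadherin genes of NCI-H69 control libraries were examined, chosen by symbol: every gene named CDH or PCDH with a number, and every gene of the PCDHA, PCDHB and PCDHG clusters. This gave 86 of the 17170 genes in the deposited table. They divide into 16 classical cadherins, 4 other CDH genes, 13 protocadherins that stand alone in the genome, and 15, 16 and 22 genes of the alpha, beta and gamma protocadherin clusters. NCI-H69 is an established small cell lung cancer line, grown here in RPMI-1640 with serum. Poly(A) RNA was sequenced from 3 control replicates, made stably with a non-targeting guide RNA, and 3 replicates with a stable CRISPR/Cas9 knockout of SCRMP, encoded at MIR7-3HG, were also described. The labels call them biological replicates but do not say whether a group is a clone or a pool of cells. No column name matched a knockout sample, so the knockout comparison was not made and all values are levels in the 3 control libraries, given as mean ± SD with n = 3.

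Cadherins are calcium-dependent adhesion proteins. Classical cadherins bind the same or a related cadherin on the next cell and are tied to actin through catenins, and epithelial cells typically rely on E-cadherin while mesenchymal cells often carry N-cadherin or cadherin-11. Protocadherins share the extracellular repeats but lack the catenin-binding tail. In the clusters, each gene has its own promoter and a large variable exon. Alpha and gamma genes splice that exon to constant exons shared by their whole cluster, and neurons use combinations of these genes as a surface identity.

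The control libraries held 20941185, 22309228 and 22477571 estimated reads. Levels are in TPM, transcripts scaled for length and library size. Small cell lung cancer lines are typically neuroendocrine, and the values go against that label: 1 of 9 measured neuroendocrine markers reached 1 TPM in every library, NCAM1 at 25.7 TPM ± 3.66, and the granule gene CHGA had 0.080 TPM ± 0.020. The summed level of these 9 markers ran from 23.3 to 30.8 TPM. For scale, 66.5% of all genes reached 1 TPM in every library. Mesenchymal and fibroblast markers had 7 of 8 at or above 1 TPM and a summed level of 5881 to 5919 TPM, most of it from vimentin. Epithelial markers had 3 of 7 at or above 1 TPM, with a sum of 51.9 to 67.2 TPM, most of it from ESRP1 at 39.4 TPM ± 5.22. Of 5 measured neural and glial markers 1 reached 1 TPM in every library, TUBB3 at 124.6 TPM ± 10.2. The defining endothelial genes PECAM1 and VWF had 0.027 TPM ± 0.025 and 0.020 TPM ± 0.026, and leukocyte PTPRC had 0.517 TPM ± 0.343. Of 6 endothelial markers none reached 1 TPM in every library, with a sum of 0.57 to 0.74 TPM, and of 4 leukocyte markers 1 did, with a sum of 2.68 to 3.51 TPM. The part of such cells in the cadherin levels was not tested.

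The clusters are shown first as sequence, because each member has its own promoter and the alpha and gamma members end in the same exons. All clusters lie on the plus strand of chromosome 5 in GRCh38.p14, the alpha genes from 140786140 to 141012347, the beta genes from 141051374 to 141249365 and the gamma genes from 141330514 to 141512975 (RefSeq). The RefSeq promoter table, with 250 bases before and 50 after each start, had an entry for 69 of the 86 members, 47 of them clustered. Most clustered promoters hold a short word, CGCTG, within a window of 100 to 30 bases before the start, the only stretch in which it was searched. The 40-base stretches below lie wholly upstream of the start, in alpha genes that were detected (PCDHA5, PCDHA10) or not (PCDHA2, PCDHA8), with CGCTG in capitals.
PCDHA5 (chr5:140821538-140821577): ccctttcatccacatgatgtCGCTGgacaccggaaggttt
PCDHA10 (chr5:140855837-140855876): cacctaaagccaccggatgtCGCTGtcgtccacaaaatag
PCDHA2 (chr5:140794777-140794816): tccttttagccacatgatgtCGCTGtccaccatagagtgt
PCDHA8 (chr5:140841126-140841165): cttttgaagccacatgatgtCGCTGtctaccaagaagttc

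The beta stretches come from the detected PCDHB2 and PCDHB16 and from PCDHB10 and PCDHB13, which were not detected. They share letters on either side of the word.
PCDHB2 (chr5:141094540-141094579): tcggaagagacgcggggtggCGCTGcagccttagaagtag
PCDHB16 (chr5:141182306-141182345): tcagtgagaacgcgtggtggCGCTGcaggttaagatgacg
PCDHB10 (chr5:141192295-141192334): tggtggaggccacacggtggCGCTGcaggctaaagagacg
PCDHB13 (chr5:141213861-141213900): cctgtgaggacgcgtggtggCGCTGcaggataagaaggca

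The gamma stretches are from the detected PCDHGC3, PCDHGC4, PCDHGB1 and PCDHGA10 and from PCDHGA8 and PCDHGB4, which were not detected. PCDHGB7, also detected, is not printed: it holds CGCTG with other letters around it.
PCDHGC3 (chr5:141475876-141475915): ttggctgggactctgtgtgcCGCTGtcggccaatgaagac
PCDHGC4 (chr5:141484948-141484987): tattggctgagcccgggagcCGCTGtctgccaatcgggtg
PCDHGB1 (chr5:141350021-141350060): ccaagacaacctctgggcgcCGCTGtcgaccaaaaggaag
PCDHGA10 (chr5:141412927-141412966): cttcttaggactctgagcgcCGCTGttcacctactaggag
PCDHGA8 (chr5:141392564-141392603): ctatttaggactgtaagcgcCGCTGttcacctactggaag
PCDHGB4 (chr5:141387613-141387652): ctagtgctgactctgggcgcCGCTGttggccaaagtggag

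CGCTG on the gene's strand, starting 100 to 30 bases before the start, was found in 35 of the 47 clustered genes with an entry (74.5%), against 11.3% of all 27305 genes in the promoter table. It was found in 7 of 13 alpha, 10 of 14 beta and 18 of 20 gamma genes, and in 5 of 22 members outside the clusters. For each cluster, the 10-letter word around CGCTG held by more of its promoters than any other such word was then searched on both strands of the whole window. GATGTCGCTG was in 6 of 13 alpha promoters and 0.0549% of all genes, GGTGGCGCTG in 12 of 14 beta promoters and 0.341% of all genes, and GCGCCGCTGT in 9 of 20 gamma promoters and 0.165% of all genes. All contain CGCTG, and none was found in a promoter of another cluster. These words were picked from the clustered promoters themselves, so their frequency there describes the sequences only. Within the stretches that hold the longer word, 16 of 40 positions were identical in all 6 alpha genes, 15 in all 10 beta genes and 12 in all 9 gamma genes. These counts include the 10 letters of the word itself, which are identical because the stretches were selected for holding it.

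CGCTG stood before genes of both kinds. It was present in 9 of 10 detected clustered genes with an entry and in 26 of 37 that were not detected, a description with no test. The GC content of the window had a median of 39.7% over clustered genes and 54.9% over the other members, against 58.3% over all genes. Detected clustered genes had 44.2% and the others 39.7%.

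Constant exons bear on how clustered genes can be measured. In GENCODE 29 on GRCh38, all 15 alpha genes carry the same 3 constant coding exons and all 22 gamma genes another 3. The first of each is printed to show what a read from there would contain, since these letters occur identically in every member of the cluster.
alpha constant exon (chr5:140978949-140979007): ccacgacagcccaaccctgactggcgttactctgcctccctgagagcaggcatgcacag
gamma constant exon (chr5:141494807-141494865): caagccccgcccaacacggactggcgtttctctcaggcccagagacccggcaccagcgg

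Of the annotated exon bases of each alpha gene, 19.2 to 56.6% (median 46.7%) are shared with another alpha gene. The range for gamma genes was 27.6 to 64.4%, and no beta gene shares an exon. Reads from shared exons can be given to any member, and the sources used here do not say how they were divided, so the level of any single alpha or gamma gene is reported as uncertain. Sequence alike between separate beta genes was not examined. Sharing no exon therefore does not show that each beta gene's reads are its own. Whether read values were whole numbers (within 0.005) did not separate clusters with shared exons from the beta cluster. Whole values made up 2 of 42 nonzero values in the alpha cluster, 0 of 46 in the beta cluster and 0 of 51 in the gamma cluster. The share was 35.2% for the other members and 16.4% for all genes.

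Most cadherins and protocadherins were low. Detection here means at least 1 TPM in each of the 3 libraries. Of all genes 66.5% met this, and of the 86 members 22 (25.6%). A level of 10 TPM in every library was reached by 42.5% of all genes and by 3 members: CDH6, PCDH18 and PCDHGC3. At least 10 estimated reads in every library were found for 40 members (46.5%), against 73.0% of all genes. At the other end, 25 members stayed under 0.1 TPM in every library (29.1%, against 14.0% of all genes), and 1, PCDHGA7, was listed at 0 throughout. The median member had 0.242 TPM ± 0.068, and the median of all genes was 6.83 TPM ± 0.461. The members summed to 203.9, 199.3 and 189.0 TPM in replicates 1, 2 and 3, of which the detected ones made up 92.6% ± 0.639 and the 5 highest (CDH6, PCDH18, PCDHGC3, CDH24 and PCDH9) 68.3% ± 0.903. In these bulk libraries, few cells with much of a transcript and many cells with little of it cannot be told apart.

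**Figure D1:**
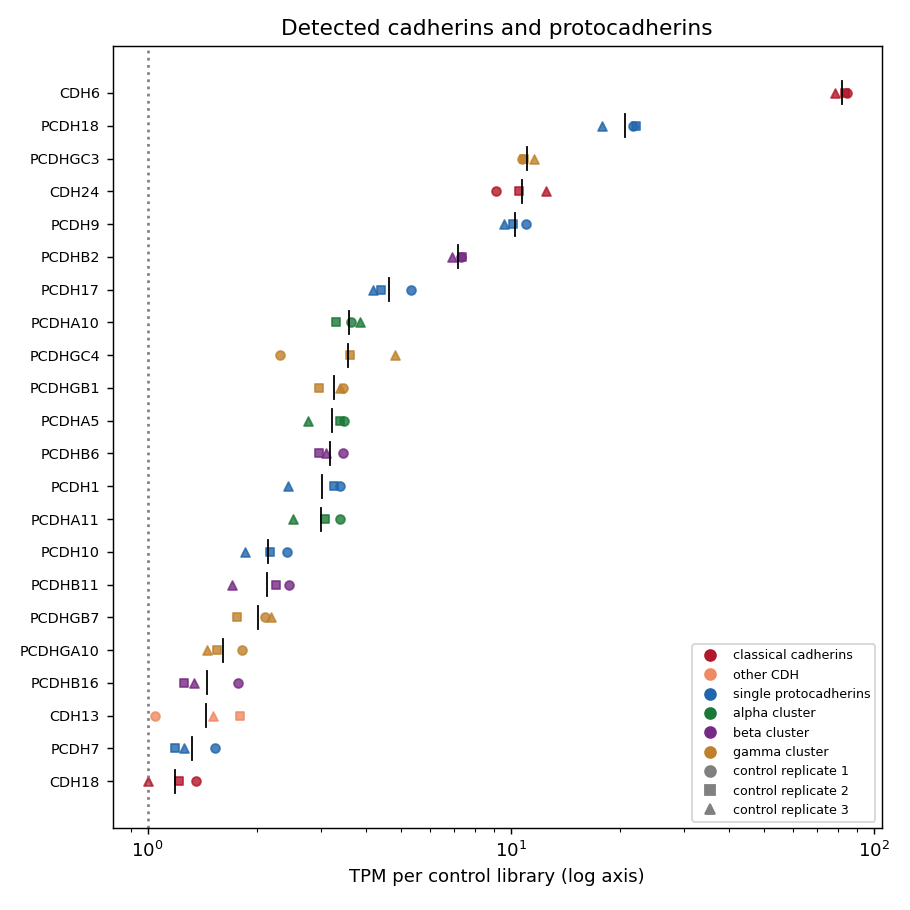
TPM of the 22 detected members in each control library on a log axis, with a symbol per replicate, a color per family and a black tick at the mean. CDH6 stands alone near 82.0 TPM, and most members lie between 1 and 5 TPM, where neighbouring genes overlap.

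CDH6, a type II classical cadherin also called K-cadherin and known from kidney and neural crest, was the highest member. It had 84.3, 83.6 and 78.2 TPM in replicates 1, 2 and 3, a mean of 82.0 TPM ± 3.34 from 4675, 4893 and 4784 estimated reads (chromosome 5, 31193686 to 31329146). All 3 values lay above those of every other member, and the gene ranked 1716 among all genes. It was 4.01 ± 0.330 times the level of PCDH18 and supplied 41.6% ± 0.321 of the summed TPM of all members.

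Other classical cadherins were far lower. CDH24, a type II cadherin that binds catenins, had 9.11, 10.5 and 12.6 TPM (mean 10.7 TPM ± 1.73), lowest in replicate 1 and highest in replicate 3. CDH6 was 7.80 ± 1.52 times as high. CDH18, a type II cadherin best known from brain, had 1.36, 1.22 and 1.00 TPM, with its lowest library at the detection limit. These 3 were the detected members of the 16 classical cadherins, all of type II, and they held 96.0% ± 0.251 of the family's summed TPM.

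The best known classical cadherins were near 0. E-cadherin, CDH1, the main adhesion protein of epithelia, had 0.18, 0.23 and 0.20 TPM from 10.1, 14.0 and 12.7 reads. N-cadherin, CDH2, the cadherin of neural and many mesenchymal cells, had 0, 0.03 and 0.02 TPM from 0, 1 and 1 reads. The sum of its 2 reads has an exact 95% Poisson interval of 0.242 to 7.22 reads, which covers counting error only. CDH11, the cadherin of osteoblasts and many fibroblasts, had 0, 0.05 and 0 TPM from 0, 2 and 0 reads, with the same sum and interval. So neither cadherin usually taken as mesenchymal reached 0.1 TPM in any library, while vimentin had 4542 TPM ± 87.8, and E-cadherin stayed under 1 TPM.

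Among the remaining type I cadherins, P-cadherin (CDH3) had 0.47, 0.76 and 0.72 TPM, and the adjacent CDH1 gene on chromosome 16 lay below it in every library. R-cadherin (CDH4) had 0.05, 0.04 and 0.05 TPM from 4, 3 and 4 reads. M-cadherin (CDH15), known from muscle, had 0.90, 0.85 and 0.60 TPM, the highest mean of the type I genes, and overlapped with CDH3. None of the 5 type I cadherins was detected, and together they summed to 1.70 TPM ± 0.182, against 96.2 TPM ± 2.08 for the 11 type II cadherins.

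The 8 type II cadherins that were not detected fall into a higher and a lower set. CDH7 had 0.797 TPM ± 0.159, CDH8 0.777 TPM ± 0.136 and CDH10 0.577 TPM ± 0.163, all known mainly from the nervous system, and their library values overlap. CDH8 had the most reads of these, 101, 91.2 and 79.1. CDH12, CDH19, CDH11, CDH20 and CDH22 stayed at or under 0.05 TPM in each library. Genes of the same chromosome differed widely: CDH6 shares chromosome 5 with CDH10, CDH12 and CDH18, of which CDH12 had 0.037 TPM ± 0.015. On chromosome 18, none of CDH2, CDH7, CDH19 and CDH20 was detected. CDH5, CDH9 and CDH16 are not analysed here.

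Of the 4 other CDH genes, CDH13 was detected. T-cadherin, its product, is held in the membrane by a lipid anchor and has no catenin-binding tail. It had 1.05, 1.80 and 1.51 TPM, lowest in replicate 1, from 36.4 to 44.1 reads (mean 1.45 TPM ± 0.378). CDH23, which forms hair cell tip links with PCDH15, had 0.107 TPM ± 0.032, and PCDH15 had 0.403 TPM ± 0.021. CDH17, an intestinal and liver cadherin, had 0.023 TPM ± 0.0058, and CDH26 had 0.037 TPM ± 0.015.

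Single protocadherins were the family with the largest share detected, 6 of 13 (46.2%). PCDH18, a delta-2 protocadherin, led them with 21.8, 22.2 and 17.8 TPM (mean 20.6 TPM ± 2.40, chromosome 4, 137518918 to 137532494), lowest in replicate 3. It gave 47.0% ± 1.79 of the family's summed TPM. Its spread of 11.6% was above the 2.69% expected from its reads alone. PCDH9, a delta-1 protocadherin of the developing brain, had 11.1, 10.2 and 9.57 TPM from 1022, 973.5 and 961.6 reads.

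The next delta-2 genes were PCDH17 with 5.33, 4.39 and 4.17 TPM and PCDH10 with 2.42, 2.17 and 1.85 TPM, and both were highest in replicate 1 and lowest in replicate 3. PCDH1, a delta-1 gene expressed in airway epithelium, had 3.40, 3.27 and 2.43 TPM, and PCDH7 1.53, 1.19 and 1.26 TPM. PCDH8, the highest member that was not detected, had 0.75, 1.08 and 0.93 TPM and passed 1 TPM in replicate 2. PCDH19, the X-linked gene mutated in a form of epilepsy, had 0.030 TPM ± 0.010. PCDH12, known from endothelium, had 0.040 TPM ± 0.017. PCDH11X and PCDH11Y are near-identical copies, so their reads can be exchanged, and PCDH11X had 0.013 TPM ± 0.023. Detected and undetected genes shared chromosomes: all 3 single protocadherins on chromosome 4 (PCDH7, PCDH10 and PCDH18) were detected, and 2 of 4 on chromosome 13, PCDH9 and PCDH17 but not PCDH8 and PCDH20.

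**Figure D2:**
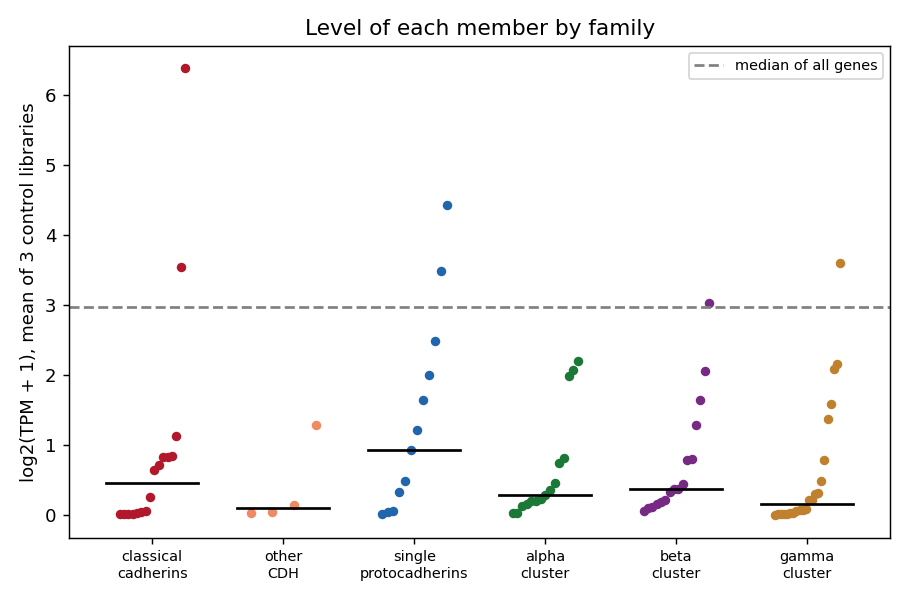
Mean log2(TPM + 1) over 3 control libraries for each member, sorted within its family, with a black line at the family median and a dashed line at the median of all genes (PCDH11Y has no point but is in its median). Each family median lies below 1 and far under the dashed line at 2.97, while single genes rise above it.

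The families were compared within each library by the median of log2(TPM + 1), a scale that compresses differences below 1 TPM. Single protocadherins had the highest median, 0.94 ± 0.12. It was above that of classical cadherins by 0.50 ± 0.06, of the alpha cluster by 0.63 ± 0.22, of the beta cluster by 0.56 ± 0.18 and of the gamma cluster by 0.78 ± 0.14, with the same sign in all 3 libraries. An exact two-sided sign-flip permutation test over 3 libraries cannot give less than p = 0.25, so no such test is used, and members of a family are not replicates. The medians were 0.44 ± 0.07 for classical cadherins, 0.31 ± 0.10 for alpha, 0.38 ± 0.06 for beta and 0.16 ± 0.02 for gamma genes. Classical cadherins lay above alpha genes by 0.13 ± 0.17 and above beta genes by 0.07 ± 0.13, less than the spread and in 2 of 3 libraries. Of these 5 families, gamma genes had the lowest median in each library, and the 4 other CDH genes had 0.10 ± 0.03. All lay below the 2.97 ± 0.08 of all genes.

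Summed levels gave another order. Classical cadherins summed to 97.9 TPM ± 2.20, 49.6% ± 1.09 of all members, and were 2.25 ± 0.185 times the single protocadherins at 43.8 TPM ± 4.31. Without CDH6, classical cadherins summed to 15.9 TPM ± 1.45, and without their own highest gene single protocadherins summed to 23.2 TPM ± 2.16, gamma genes to 12.8 TPM ± 0.852, beta genes to 10.1 TPM ± 1.55 and alpha genes to 9.34 TPM ± 1.43. The clusters summed to 12.9 TPM ± 1.37 (alpha), 17.3 TPM ± 1.72 (beta) and 23.8 TPM ± 1.33 (gamma), together 54.1 TPM ± 2.31 or 27.4% ± 0.926 of all members. The gamma cluster was above the beta cluster in each library, with 23.1, 23.1 and 25.4 TPM against 19.2, 17.0 and 15.8 TPM.

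Each cluster was carried by few genes. Of the 53 clustered genes 12 were detected (22.6%, against 66.5% of all genes). Detected genes are the higher ones by definition, so their large part of the summed TPM follows in part from the minimum. In the alpha cluster 3 of 15 genes were detected and held 76.0% ± 2.97 of its TPM. PCDHA10 had 3.64, 3.30 and 3.85 TPM, PCDHA5 3.48, 3.40 and 2.77 TPM and PCDHA11 3.40, 3.08 and 2.51 TPM. Their ranges overlap, but PCDHA11 was below both others in each library, while PCDHA10 and PCDHA5 changed order between libraries. The other 12 alpha genes had means of 0.023 to 0.780 TPM, so each detected gene stood clear of them. PCDHA10 and PCDHA11 are neighbours, while PCDHA5 is flanked by PCDHA4 and PCDHA6, which had 0.223 TPM ± 0.097 and 0.290 TPM ± 0.044. The C-type genes at the end of the cluster were lower: PCDHAC2 had 0.93, 0.86 and 0.55 TPM and PCDHAC1 0.34, 0.11 and 0.03 TPM, from 23.4, 4.0 and 1.0 reads.

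In the beta cluster, whose genes share no exon, 4 of 16 genes were detected with 80.8% ± 2.28 of its TPM. PCDHB2 led with 7.31, 7.35 and 6.90 TPM, which gave 41.7% ± 3.10 of the cluster and a spread of 3.47%, below the 5.22% expected from counting. PCDHB6 followed with 3.46, 2.96 and 3.10 TPM, then PCDHB11 with 2.45, 2.26 and 1.71 TPM and PCDHB16 with 1.78, 1.26 and 1.34 TPM. PCDHB2 lies between PCDHB1 at 0.117 TPM ± 0.067 and PCDHB3 at 0.077 TPM ± 0.067. The 12 others had means up to 0.757 TPM, reached by PCDHB14, and PCDHB4 passed 1 TPM in replicate 1 (1.01 TPM).

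In the gamma cluster 5 of 22 genes were detected and held 90.3% ± 2.04 of its TPM. PCDHGC3, a C-type gene known to be expressed widely, had 10.8, 10.9 and 11.6 TPM (mean 11.1 TPM ± 0.482) and 46.5% ± 0.619 of the cluster. PCDHGC4, the next gene along the chromosome, had 2.31, 3.61 and 4.79 TPM from 62.6, 107.6 and 144.4 reads. Its spread of 34.7% was the largest among detected members, against 9.77% expected from counting. PCDHGC5, the last gene, had 0.020 TPM ± 0.017. Among the other gamma genes, PCDHGB1 had 3.45, 2.96 and 3.40 TPM, PCDHGB7 2.10, 1.76 and 2.19 TPM and PCDHGA10 1.82, 1.55 and 1.46 TPM. Of 12 A-type genes 1 was detected, of 7 B-type genes 2, and of 3 C-type genes 2. The 17 undetected genes had means of 0 to 0.743 TPM with a median of 0.053 TPM.

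**Figure D3:**
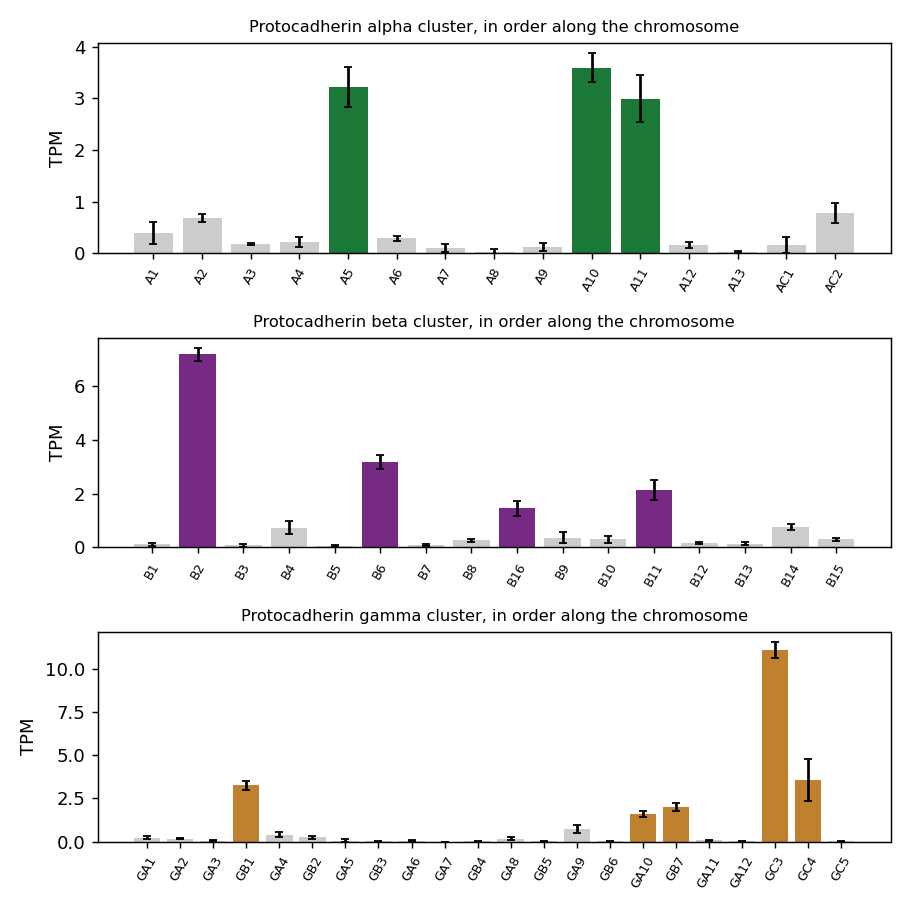
Mean TPM ± SD (n = 3 control libraries) of the clustered protocadherins in order along chromosome 5, one panel per cluster, with detected genes in color and the others in grey. Each cluster has a few detected genes with undetected ones on at least 1 side of them, and PCDHB2 (7.19 TPM) and PCDHGC3 (11.1 TPM) are the highest bars of their panels.

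In the order of the 22 detected members, 6 of the 21 neighbouring pairs did not overlap between libraries and 15 did. The clear steps were CDH6 to PCDH18, PCDH18 to PCDHGC3, PCDH9 to PCDHB2, PCDHB2 to PCDH17, PCDH17 to PCDHA10 and PCDHA11 to PCDH10. PCDHGC3, CDH24 and PCDH9, between 9.11 and 12.6 TPM, could not be ordered.

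Replicate spread of the detected members had a median coefficient of variation of 12.7%, with a range of 3.47 to 34.7%, against 7.56% over all detected genes. Counting alone gave a median of 7.93%. That value is taken from reads, so it covers nothing that changes TPM but not reads. The observed spread exceeded the counting value in 19 of 22 members and was more than 2 times as large in 8. The same counts and the counting value over all detected genes are not given here. A spread beyond counting therefore cannot be called particular to the members. After PCDHGC4, the widest was CDH13 at 26.0%, on 121.1 reads in all. Its reads of 36.4, 44.1 and 40.6 in replicates 1, 2 and 3 varied less than its TPM. The 26.0% is therefore not a spread of its reads.

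**Figure D4:**
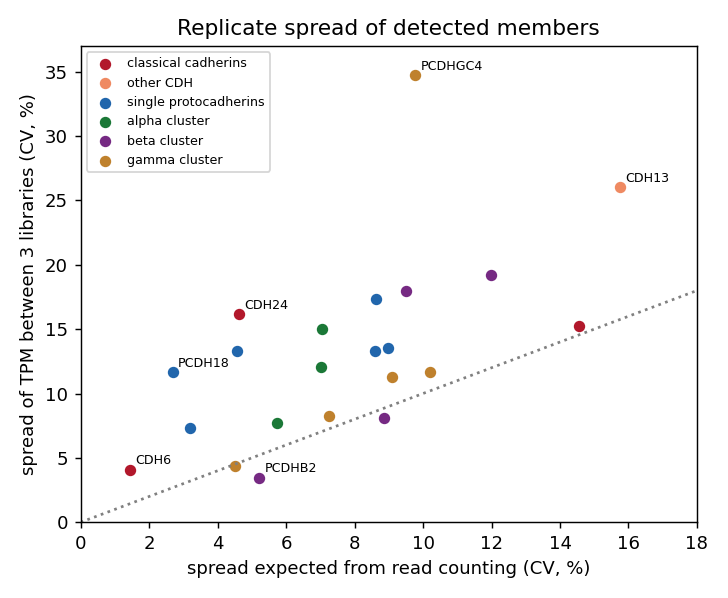
Coefficient of variation of TPM between 3 control libraries against that expected from read counting, for the 22 detected members, with a dotted line where both are equal. PCDHGC4 stands far above the line at 34.7%, CDH6 has the smallest counting error, and 3 members lie below the line.

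Partners and regulators of cadherins were measured in the same libraries. The list of catenins and junction partners had a median of 9.63 TPM ± 1.35, and 14 of its 19 genes were detected (73.7%, near the 66.5% of all genes). Alpha-catenin CTNNA1, which ties the complex to actin, was highest at 169.9 TPM ± 3.53, followed by CTNNAL1 at 81.4 TPM ± 2.15. Beta-catenin (CTNNB1) and p120-catenin (CTNND1), which bind the cadherin tail, had 56.5 TPM ± 2.91 and 50.6 TPM ± 2.52. CTNND2, the delta-catenin of neurons, was lowest at 0.040 TPM ± 0.069, and plakoglobin (JUP) had 1.24, 0.91 and 1.00 TPM.

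Known repressors of CDH1 included abundant genes. Of 10 such factors 7 were detected (70.0%, near the 66.5% of all genes), and the median was 11.5 TPM ± 1.24. TWIST1 had 320.5 TPM ± 4.86, SNAI2 127.2 TPM ± 7.82 and ZEB1 36.2 TPM ± 5.14, while TWIST2 was listed at 0. Enzymes that cut or mature cadherins had a median of 28.1 TPM ± 3.57, and 12 of 14 were detected (85.7%, against 66.5% of all genes). The sheddase ADAM10, which cleaves E- and N-cadherin, had 25.6 TPM ± 3.09, MMP14 was highest at 272.1 TPM ± 2.71, APH1A of gamma-secretase followed at 156.6 TPM ± 6.50, and MMP7 was lowest at 0.023 TPM ± 0.040. Trafficking genes had a median of 45.1 TPM ± 2.75, and all 9 passed 1 TPM in every library, against 66.5% of all genes. They ran from CBLL1, a ligase for E-cadherin, at 17.7 TPM ± 0.786 to RAB5A at 104.3 TPM ± 1.24.

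Of the regulators of clustered protocadherin promoters 14 of 16 were detected (87.5%, against 66.5% of all genes), and their median was 20.0 TPM ± 2.74. CTCF, which binds these promoters and their enhancers, had 41.8 TPM ± 2.87. The cohesin subunit RAD21 was highest at 601.9 TPM ± 25.7, followed by the subunit STAG2 at 78.5 TPM ± 11.7, and SMCHD1, a repressor of the clusters, had 11.9 TPM ± 2.51. CTCFL was lowest at 0.180 TPM ± 0.070.

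Elsewhere in the cadherin superfamily few genes were high. In the desmosomal list 4 of 13 were detected (30.8%, against 66.5% of all genes). They were the cadherins DSG2 (62.5 TPM ± 11.9), DSC1 (34.8 TPM ± 5.15) and DSC2 (29.6 TPM ± 3.38), and the plaque protein DSP at 4.22 TPM ± 0.409. The list's median was 0.060 TPM, and the plaque genes PKP1 and PKP3 had 1 read each over all libraries. DSG2 had 75.3, 60.8 and 51.5 TPM, below CDH6 and above PCDH18 in each library. Among 16 measured atypical genes the median was 0.518 TPM ± 0.067 and 5 were detected (31.2%, against 66.5% of all genes). CLSTN1 (35.5 TPM ± 2.70) and FAT1 (15.3 TPM ± 3.46) led them, and RET was lowest of the list at 0.020 TPM ± 0.020.

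**Figure D5:**
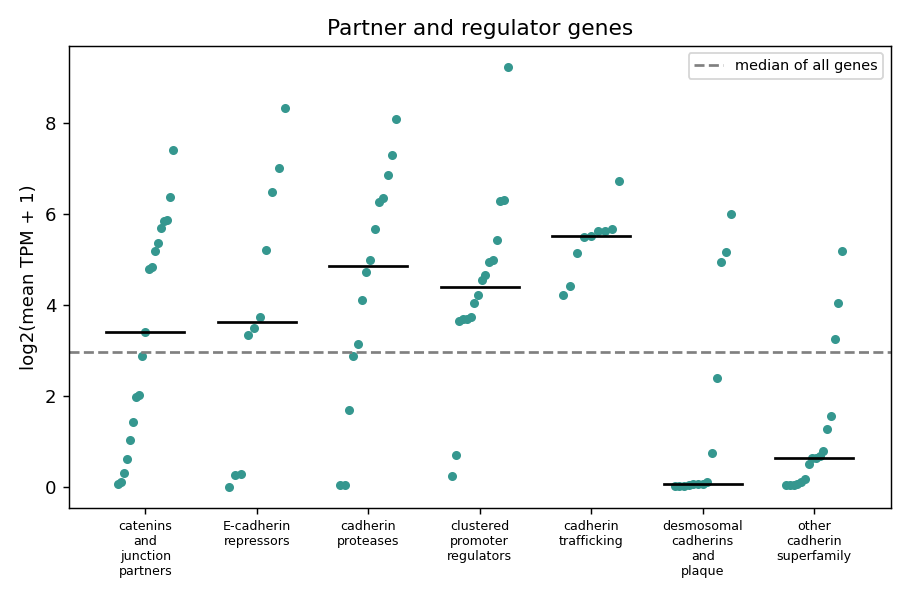
Log2(mean TPM + 1) of the genes in 7 lists of cadherin partners, regulators and relatives, sorted within each list, with a black line at the list's median and a dashed line at the median of all genes. Lists of partners and regulators have medians above the dashed line at 2.97, and the desmosomal and other cadherin superfamily lists below it.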

How the data were processed

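Poly(A) RNA libraries that keep the strand were sequenced on DNBSEQ-T7, per the labels' protocols. Per the submitters' processing notes, HISAT2, StringTie, DESeq2 and build GRCh38 were used, with no roles given. The sources used here give no annotation release. The authors deposited TPM, FPKM and estimated counts (not all whole) for each gene and library, per the file headers. Columns of 3 libraries (12 per-sample columns) match no sample label and were not used, so the intended count test of the knockout was not run.

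Computed here were means and SDs of TPM over 3 control libraries, detection (1 TPM in every library), medians of log2(TPM + 1) per family, and the counting error, 1 over the square root of the mean reads. All 86 members matched RefSeq (GRCh38.p14) by gene number. The medians and detection calls were run on simulated data, with members set far above 1 TPM and some other genes at no level at all. Most members here lie below 1 TPM, so that run checks the calculation only, not calls near the minimum. Detected members are named, clustered ones by cluster, and lists by counts with their highest and lowest genes. Genes named beyond that rule, such as neighbours, were chosen after their values were seen. Members and lists were chosen with earlier results of these data known. Nothing says that the cultures were separate, so SDs measure the spread between these libraries. The median detected member had 58.1 reads per TPM, so levels below 0.1 TPM rest on few reads. Alternatives were FPKM, scaled reads, other minimums, another added constant, TPM without ribosomal protein genes, the mean log2 and leaving out each library. Tools were numpy 2.4.6 and pandas 2.3.3 under Python 3.11.15, with matplotlib 3.10.9 for plots and scipy 1.17.1 for intervals.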

Additional observations from a re-analysis of the deposited data

How the results depend on the processing

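No paired analysis was possible because the knockout samples have no matching columns, and other settings of that comparison (DESeq2, no filter, a replicate block, left-out replicates) were not run. Counts of detected members were the same without each library in turn as with all 3. With a minimum of 5 TPM in place of 1, all members fell from 22 to 6, single protocadherins from 6 to 2, alpha genes from 3 to 0, beta from 4 to 1, gamma from 5 to 1 and other CDH from 1 to 0. The share of all genes at 5 TPM is not given here, so these falls cannot be called particular to the members. With at least 10 estimated reads, which 73.0% of all genes reached, 40 members counted (46.5%), with 9 classical cadherins, 8 alpha and 8 beta genes. With a minimum of 1 FPKM, all members fell from 22 to 17 and other CDH from 1 to 0. Classical cadherins fell from 3 to 2, single protocadherins from 6 to 5, beta genes from 4 to 3 and gamma genes from 5 to 4, while alpha genes stayed at 3. The share of all genes with FPKM is not given here. A minimum of 1 TPM in the mean, chosen after seeing the data, kept every count within 1.5 times.

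The median of single protocadherins stayed above that of the other 4 families in all 36 alternative values, and 17 moved by more than the spread between libraries. With FPKM, 0.1 TPM added or ribosomal protein genes left out, the order of the medians was all but fixed in advance. It was also fixed without each library in turn, because all 3 libraries had the same sign. Those settings therefore do not test the order. Against classical cadherins the log2 difference of 0.50 became 0.33 with FPKM, 1.76 with scaled reads, 1.21 with 0.1 TPM added, 0.62 with ribosomal protein and MTRNR2L genes left out of TPM, 0.78 without members under 10 reads and 0.37 with the mean log2. Here a member was left out only if it had under 10 estimated reads in all 3 libraries. Against alpha genes, 0.63 became 1.59 with scaled reads, 1.60 with 0.1 TPM added and 1.22 without members under 10 reads. Against beta genes, 0.56 became 0.38 with FPKM, 1.99 with scaled reads, 1.36 with 0.1 TPM added and 1.03 without members under 10 reads. Against gamma genes, 0.78 became 0.52 with FPKM, 3.09 with scaled reads, 2.24 with 0.1 TPM added and 0.99 with TPM without ribosomal protein genes. Adding less to TPM stretches low levels by construction, and reads are not divided by gene length. Within a library, FPKM and TPM without ribosomal protein genes are TPM times a common factor. With 1 added, such a factor also shrinks or stretches differences at low levels by construction. For the other shifts, the cause was not tested. Without each library in turn the differences ranged from 0.46 to 0.52 (classical), 0.54 to 0.75 (alpha), 0.48 to 0.66 (beta) and 0.72 to 0.85 (gamma). The median of all genes, 2.97, was 2.30 with FPKM, 2.79 with 0.1 TPM added, 8.25 with scaled reads and 3.40 without ribosomal protein genes.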

Other observations

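The order of detected members depended on whether levels were taken per length. By TPM, PCDHGC4 was 9 of 22 and CDH13 20, and by estimated reads they were 18 and 22, with 29.4 and 27.8 reads per TPM against a median of 58.1 over the detected members. PCDH7 went the other way, from 21 by TPM to 15 by reads, and PCDH17, with 104.1 reads per TPM, from 7 to 5. The scale factor follows the transcript length used for each gene, and the sources used here do not name the transcripts. It also differed between libraries of the same gene. CDH13 had 1.05, 1.80 and 1.51 TPM from 36.4, 44.1 and 40.6 reads. PCDHA2 had its highest TPM, 0.75, in replicate 3, where its reads were fewest, 28.3. TPM spreads and library orders given here can therefore differ from those of reads, and the cause was not tested.

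Of the 22 detected members, 14 (63.6%) were highest in replicate 1 and 12 (54.5%) lowest in replicate 3. Over all detected genes these shares were 57.7% and 52.8%. CDH24, PCDHGC3 and PCDHGC4 were lowest in replicate 1 and highest in replicate 3.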
